A study of Mus musculus with 33 samples.

Results

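The 28 genes described here encode the enzymes of cholesterol synthesis, the proteins that sense and regulate sterols in the cell, and proteins that move sterols within and out of hepatocytes. They were taken as a list of gene names, chosen with earlier results of these data known. All 28 were present among the 21671 genes of the deposited table. The study asked how MYC and β-catenin act on gene expression in mouse liver, shortly after activation and in the tumours they drive, by sequencing total RNA. All mice were labelled as strain C57BL/6. In the short-term arm, mice of 6 to 8 weeks were given AAV8-TBG-CRE, a virus that carries Cre recombinase under a hepatocyte promoter, and livers were taken 4 days later. These livers were wild type, β-cat Ex3 (an allele of β-catenin that becomes stable when Cre removes exon 3), R26-lslMYC (MYC placed at the Rosa26 locus behind a stop that Cre removes) or both, with 5 libraries in each group, here called wild-type, Ex3, MYC and MYC+Ex3 livers. All 4 groups, the wild type included, had received the virus. In the tumour arm, 3 libraries came from noduli of Alb-CreERT2/R26-lslMYC mice and 3 from noduli of mice that also carried the Ex3 allele. They were set against 7 livers labelled wild type and taken 4 days after 4-OHT (4-hydroxytamoxifen, which activates CreERT2), here called 4-OHT livers. The labels give neither an age nor a time for the tumours, so the age of the animals and the tumour state cannot be told apart in those comparisons.

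Cells build cholesterol from acetyl-CoA through mevalonate, isoprenoids and squalene, and then through a long series of modifications of the sterol ring. When sterols are scarce in the endoplasmic reticulum, SCAP escorts the transcription factor SREBP2 (encoded by Srebf2) to the Golgi, where proteases release it to switch on nearly all genes of the pathway, and when sterols are plentiful INSIG proteins hold SCAP back. Hepatocytes also take up and store sterols, turn them into bile acids, and export them into bile through the ABCG5/ABCG8 transporter, whose genes are targets of the oxysterol receptor LXRα (encoded by Nr1h3).

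The short-term libraries held 3.75 to 7.31 M reads in genes and the tumour and 4-OHT libraries 6.65 to 9.82 M. RPKM, the reads per kilobase of gene and M reads as the authors deposited them, were scaled differently in these 2 sets, so groups were compared only within a set. The reads of very abundant genes rose little with depth. Among libraries of a group, the median gene of the 300 most abundant rose by 0.47 log2 units per log2 unit of depth in the short-term set and by 0.21 in the tumour set. The median of 4000 genes of lower rank rose by 1.15 and 1.11. Of the 28 genes, Insig1 and Sc5d were among the 300 in the short-term set, joined by Fdps in the tumour set, so that changes of these 3 are limited by it. Keratinocyte transcripts (Krt5, Krt14 and Krt17 together above 1 RPKM) were present in 1 of 5 MYC livers and in 3 of 5 livers of each other short-term group. The labels do not say that each library came from a different mouse, so the p-values measure the spread between libraries, which may be in part technical.

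Promoter sequences of 23 of the 28 genes were found in RefSeq (mouse build GRCm38.p6). Fdps, Fdft1, Sqle, Stard4 and Npc1 were not matched. Windows of 300 bases ran from 250 before to 50 after each start, 31 for the 23 genes. A gene was counted if any of its windows matched. The letters CCAAT, the box bound by NF-Y, were found in 20 of 23 genes (86.96%, against 41.1% of all 27025 genes with promoter sequences). GGGCGG, the box bound by Sp1, was found in 18 of 23 (78.3%, against 38.2%). CACGTG, the E-box that MYC and MAX can bind, was found in 5 of 23 (21.7%, against 8.09%), namely Dhcr7, Hsd17b7, Insig1, Sc5d and Scap. TCACNCCAC, a core of the sterol regulatory element bound by SREBP, was found in 1 of 23 (4.35%, against 1.44%), Hmgcs1. By window the shares were 64.5% against 37.4% of all windows for CCAAT and 67.7% against 35.7% for GGGCGG. They were 19.4% against 7.15% for CACGTG and 3.23% against 1.24% for TCACNCCAC. Both strands were searched, and none of the matches shown overlaps another. The 200 bases before the start are given, 5′ to 3′ on the gene's strand with matches in capitals, for 3 ring-modifying enzymes that fell with MYC and for the sensor Insig1 and the regulator Srebf2. Tm7sf2 lies on the minus strand at chr19:6067851-6068050, Cyp51 on the minus strand at chr5:4104698-4104897, Hsd17b7 on the minus strand at chr1:169969206-169969405, Insig1 on the plus strand at chr5:28071212-28071411 and Srebf2 on the plus strand at chr15:82147069-82147268.
Tm7sf2: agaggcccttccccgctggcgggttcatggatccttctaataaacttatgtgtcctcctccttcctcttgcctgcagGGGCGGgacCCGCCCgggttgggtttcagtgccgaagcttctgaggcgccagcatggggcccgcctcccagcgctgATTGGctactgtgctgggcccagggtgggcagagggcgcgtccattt
Cyp51: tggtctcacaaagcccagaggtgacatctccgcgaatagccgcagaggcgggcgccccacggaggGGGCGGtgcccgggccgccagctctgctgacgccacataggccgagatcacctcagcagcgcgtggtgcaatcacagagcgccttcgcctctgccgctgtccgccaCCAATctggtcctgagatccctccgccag
Hsd17b7: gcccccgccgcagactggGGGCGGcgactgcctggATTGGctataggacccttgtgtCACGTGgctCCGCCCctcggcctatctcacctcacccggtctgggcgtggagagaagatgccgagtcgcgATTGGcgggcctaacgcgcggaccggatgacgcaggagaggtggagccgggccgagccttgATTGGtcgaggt
Insig1: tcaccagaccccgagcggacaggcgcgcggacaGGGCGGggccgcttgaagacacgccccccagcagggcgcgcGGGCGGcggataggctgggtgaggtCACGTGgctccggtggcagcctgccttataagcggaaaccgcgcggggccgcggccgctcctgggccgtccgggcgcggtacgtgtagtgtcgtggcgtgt
Srebf2: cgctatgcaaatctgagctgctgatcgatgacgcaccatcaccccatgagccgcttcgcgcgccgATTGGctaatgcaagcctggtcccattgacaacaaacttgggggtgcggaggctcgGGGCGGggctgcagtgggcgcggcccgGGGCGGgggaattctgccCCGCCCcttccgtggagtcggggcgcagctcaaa
Hsd17b7 held 3 CCAAT boxes on the other strand (ATTGG) and an E-box, and Insig1 an E-box that starts 101 bases before the gene's start. Abcg5 and Abcg8 are read away from each other from starts 110 bases apart. The 109 bases between them, shown because the pair shares this stretch, lie at chr17:84683012-84683120 on the plus strand and held none of the 4 motifs.
Abcg5-Abcg8: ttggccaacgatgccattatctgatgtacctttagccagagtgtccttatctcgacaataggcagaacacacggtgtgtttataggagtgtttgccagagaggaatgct
A match is a description of the letters and does not show that a factor binds there.

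In wild-type livers on day 4, levels per length differed widely among the genes. The highest mean levels were those of Sc5d, the C5-desaturase of the last steps (194 ± 18.9 RPKM, SD, n = 5), Insig1 (188 ± 25), Fdps, which makes farnesyl diphosphate (151.9 ± 20.8), and Insig2 (150 ± 49.7). Sc5d and Insig1 differed by less than their spread, as did Fdps and Insig2, while the step from Insig1 to Fdps was larger than either SD. The lowest levels above background were those of Mvk, the kinase that phosphorylates mevalonate (14.02 ± 6.48), Ggps1, which makes geranylgeranyl diphosphate (14.9 ± 0.946), and Srebf2 (15.7 ± 3.66), which differed from each other by less than their spread. Hmgcs1, the cytosolic HMG-CoA synthase, was listed at or near 0 everywhere. It had 16 reads over all 33 libraries, at most 2 in any library, and 0 in 19 libraries. Its RPKM were 0.022, 0.0265, 0, 0.0243 and 0 in the wild-type livers, 0.022, 0.0391, 0, 0 and 0 in the Ex3 livers, 0.0225, 0.0195, 0, 0.026 and 0.0177 in the MYC livers, and 0, 0.0323, 0, 0 and 0.0245 in the MYC+Ex3 livers. In the tumour set it was at 0 in all 3 MYC tumours, at 0, 0 and 0.00383 in the MYC+Ex3 tumours, and at 0, 0 and 0.00416 (lowest, median, highest) in the 4-OHT livers. In the same wild-type livers each of the other 27 genes had at least 82 reads. No fold is given for Hmgcs1, whose RPKM near 0 may not reflect its level. Hmgcs1 did not reach the filter of 1 RPKM in 3 libraries, and the other 27 genes did in both sets.

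**Figure D1:**
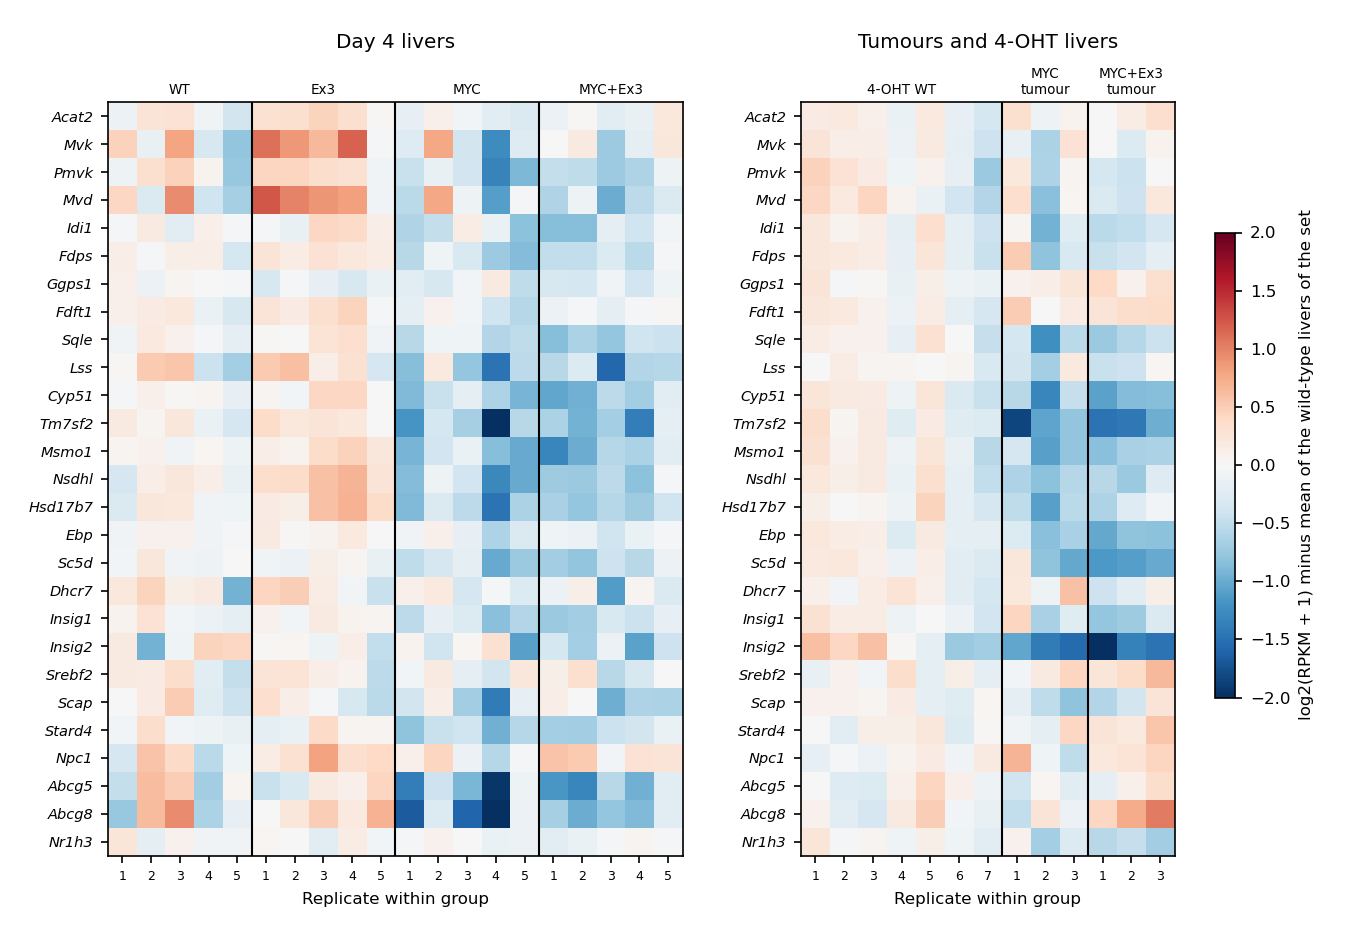
Levels of the 27 genes tested in every library, as log2(RPKM + 1) minus the mean of the 5 wild-type livers (left panel) or of the 7 4-OHT livers (right panel). Columns are libraries by replicate number within each group, rows are genes by role, and blue marks lower levels, which fill most sterol-ring rows in the MYC and MYC+Ex3 columns of both panels.

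In MYC livers on day 4, enzymes that build and modify the sterol ring were lower than in wild-type livers. Of the 27 genes tested, 13 were lower in MYC livers than in wild-type livers and 0 were higher (limma on log2(RPKM + 1), adjusted p under 0.05), and all 27 estimates were negative. Among all genes tested, 5.36% were lower and 16.9% higher, 22.3% in either direction. After each library was rescaled by its median ratio 15 of the 27 were lower and 0 higher, where 9.53% of all genes were lower and 13.8% higher. Before rescaling, the median log2 change of the 27 was -0.47, against 0.07 for all genes. In the squalene and sterol steps 7 of 11 genes fell (median of the 11 -0.62), and in the mevalonate and isoprenoid steps 2 of 7 tested genes fell (median of the 7 -0.27). Of 4 sensing and regulating genes 1 fell, and of 5 transport genes 3. Whether these role groups differed from each other was not tested. The livers are mixtures of cells, and fewer cells of a type and less RNA per cell cannot be told apart.

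Tm7sf2 encodes a C14-reductase of the sterol ring in the endoplasmic reticulum. Its RPKM were 65.6, 59.9, 67.3, 52.7 and 45.4 in the wild-type livers and 24.9, 44.8, 36.1, 9.66 and 38.8 in the MYC livers. Every MYC liver lay below every wild-type liver, with MYC replicate 4 the lowest. It fell by 1.04 ± 0.286 (SE) log2 units (limma adjusted p = 0.0124). Hsd17b7, a 3-ketosteroid reductase of the demethylation steps, was at 39.8, 57.7, 56.7, 46.8 and 46.0 RPKM in the wild-type livers and at 26.02, 39.8, 33.9, 17.0 and 31.3 in the MYC livers. The highest MYC liver was level with the lowest wild-type liver, and the gene fell by 0.76 ± 0.175 (limma adjusted p = 0.00366). Nsdhl, which works beside it in removing the C4 methyl groups, was at 34.7, 48.4, 51.5, 48.2 and 39.4 RPKM in the wild-type livers and at 23.6, 41.0, 33.7, 17.4 and 21.5 in the MYC livers. It fell by 0.73 ± 0.194 (limma adjusted p = 0.0101), with 1 MYC liver, replicate 2, within the wild-type range.

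The other called enzymes of the ring were Msmo1, the C4-methylsterol oxidase (-0.66), Cyp51, the lanosterol demethylase (-0.62), and Sc5d (-0.56). Before the ring is formed, Sqle, the squalene epoxidase that catalyses a rate-limiting step, was also called (-0.36). Sqle was at 82.2, 98.6, 91.6, 84.1 and 75.8 RPKM in the wild-type livers and at 58.2, 81.2, 81.4, 57.1 and 60.0 in the MYC livers. MYC replicates 2 and 3 lay within the wild-type range, and the call of Sqle (limma adjusted p = 0.0443) was lost in 6 of 11 alternative settings and in 10 of 20 fits that each left out 1 library. Lss, the cyclase that forms the rings of the first sterol, had a change of -0.68 with a wide error (SE 0.298, limma adjusted p = 0.107). Ebp (-0.20), Fdft1, the squalene synthase (-0.22), and Dhcr7, which catalyses a final reduction (-0.07), were not called. In the mevalonate and isoprenoid steps Pmvk, the phosphomevalonate kinase, fell by 0.64 and Fdps by 0.51, while Idi1 (-0.38), Mvk (-0.27), Mvd (-0.20), Ggps1 (-0.18) and Acat2 (-0.13) were not called. Pmvk lost its call in 5 of 11 alternative settings and 7 of 20 fits without 1 library. For both Pmvk and Sqle a sex covariate was among the settings that ended the call.

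Among the sensors, Insig1, itself a target of SREBP2, was at 197, 227, 180, 172 and 164 RPKM in the wild-type livers and at 130, 167, 155, 104 and 125 in the MYC livers. Only MYC replicate 2 reached the wild-type range, and Insig1 fell by 0.47 ± 0.128 (limma adjusted p = 0.0113). Srebf2 was at 17.5, 17.3, 19.8, 13.1 and 10.7 RPKM in the wild-type livers and at 14.7, 17.5, 13.5, 11.7 and 18.1 in the MYC livers. These values overlapped throughout, with a difference of -0.04 (95% interval -0.44 to 0.36, limma adjusted p = 0.917). Scap had a change of -0.50 (limma adjusted p = 0.184) and Insig2 of -0.22 (0.604). With the keratin set as a term Scap (-0.78, limma adjusted p = 0.00339) and Lss (-0.92, 0.0132) were called. Abcg5 (-0.91, 0.0549) and Sqle (-0.34, 0.061) were then not called, and 8.4% of all genes were lower.

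Abcg8, 1 member of the sterol exporter, had the largest estimate and the largest SE of the 27 genes. It was at 21.4, 57.6, 71.6, 23.3 and 32.8 RPKM in the wild-type livers and at 11.0, 30.4, 11.6, 3.36 and 34.1 in the MYC livers. Its partner Abcg5 was at 41.4, 89.4, 82.2, 35.4 and 60.4 and at 21.6, 43.1, 30.2, 14.3 and 54.2 RPKM. For both genes the groups overlapped, wild-type replicates 2 and 3 were high and MYC replicate 4 was the lowest of all. Abcg8 fell by 1.35 ± 0.428 (limma adjusted p = 0.0276) and Abcg5 by 0.95 ± 0.317 (0.036). Leaving out any one of 5 libraries ended the call of Abcg8 (MYC replicates 1, 3 and 4 and wild-type replicates 2 and 3, limma adjusted p up to 0.085) and any one of 6 that of Abcg5 (the same 5 and wild-type replicate 5, up to 0.119). Stard4, which carries sterols through the cytosol and is a known target of SREBP2, fell by 0.64 ± 0.141 (limma adjusted p = 0.00262), and of the 13 calls only this one held in all 11 alternative settings and all 20 fits without 1 library. Npc1, which releases sterols from lysosomes (-0.04), and Nr1h3 (-0.04) were not called.

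MYC replicate 4 had the lowest value of its group in 18 of the 27 genes and MYC replicate 2 the highest in 16. The count was 9, all lower, without MYC replicate 1, MYC replicate 4, wild-type replicate 2 or wild-type replicate 3. Fitted on the keratin-free libraries alone, which leaves 2 wild-type and 4 MYC livers, 2 of the 27 genes were called, Stard4 and Tm7sf2, where 2.27% of all genes were lower. The median change of the 27 there was -0.50, with Cyp51 at -0.62 and Fdps at -0.58. With only the wild-type and MYC groups in the fit 8 were called, where 2.73% of all genes were lower.
The numbers in the titles fall into runs that cross the 4 groups. With the first digits of these numbers as a block, a setting chosen after seeing the data, 3 of the 27 genes were called lower in MYC livers, Cyp51, Msmo1 and Stard4, where 1.59% of all genes were lower, and the median change was -0.27. Tm7sf2 was then at -0.73 (limma adjusted p = 0.169), Hsd17b7 at -0.52 (0.0691) and Insig1 at -0.27 (0.183). Hepatocyte markers (Alb, Apoa1, Ttr, Serpina1a, Cyp2e1 and Tat) summed to between 1147 and 1344 RPKM in wild-type livers and between 936 and 1273 in MYC livers, with 2 of 6 lower, Cyp2e1 and Tat. The highest RPKM of any gene was 272 to 340 in wild-type and 237 to 351 in MYC livers. Reads of very abundant genes rose little with depth, so changes of abundant markers in this and later sums are limited by it. Endothelial markers summed to between 159.7 and 258 RPKM in wild-type livers and between 106 and 206 in MYC livers, with 2 of 6 lower, Kdr (-0.80) and Fcgr2b (-0.55). After rescaling 4 of the 6 endothelial markers were lower, where 9.53% of all genes were. Of 7 macrophage markers 1 was higher, Cd68 (0.92), and of 7 stellate and fibroblast markers Col1a1 was higher (1.19) and Reln lower (-0.91). None of these markers was at 0 in every liver. All 9 proliferation genes were higher in MYC livers (median log2 change 3.61). The part of these in the result was not tested.

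**Figure D2:**
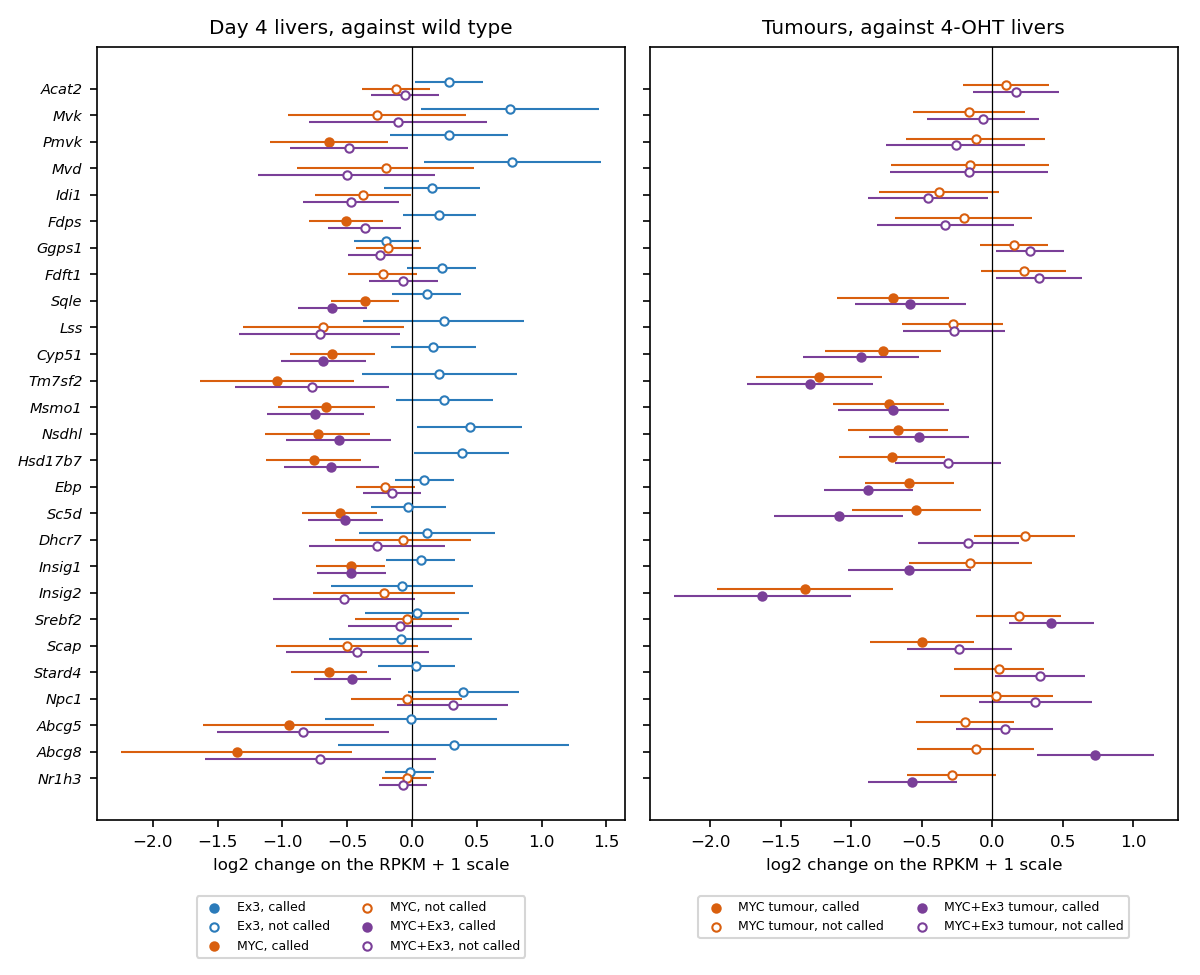
Log2 changes of the 27 genes on the log2(RPKM + 1) scale with 95% intervals, for Ex3, MYC and MYC+Ex3 livers against wild-type livers (left) and for both kinds of tumour against 4-OHT livers (right). Filled points passed an adjusted p of 0.05 in limma. All MYC points lie left of 0 on day 4, and in tumours filled points gather among the sterol-ring genes and at Insig2.

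In MYC+Ex3 livers the lower genes were again mostly enzymes of the sterol ring. Against the same wild-type livers, 8 of 27 genes were lower and 0 higher, where 6.18% of all genes were lower and 17.9% higher, 24.1% in either direction. After rescaling 12 of the 27 were lower and 0 higher, where 9.52% of all genes were lower and 15% higher. Before rescaling, 26 of the 27 estimates were negative, Npc1 being the exception at 0.31, and their median was -0.47 against 0.05 for all genes. In the squalene and sterol steps 6 of 11 were called, and in the mevalonate and isoprenoid steps 0 of 7. With the keratin set as a term Idi1 (-0.47, limma adjusted p = 0.0137) and Fdps (-0.37, 0.0495) were called. Of these 7, the authors' deposited table called 5 lower, Pmvk, Mvd, Idi1, Fdps and Ggps1. Over all genes it called 1573 of 13729 lower. Both comparisons used the same wild-type livers, so their likeness is no independent evidence.

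Msmo1 was at 68.7, 70.4, 63.2, 68.0 and 61.6 RPKM in the wild-type livers and at 26.2, 32.7, 44.3, 42.2 and 56.9 in the MYC+Ex3 livers. Cyp51 was at 101, 111, 105, 108 and 92.1 and at 49.7, 52.7, 71.6, 63.3 and 89.2 RPKM. For both enzymes the groups did not overlap, and MYC+Ex3 replicate 5 lay nearest to wild type. Msmo1 fell by 0.75 ± 0.178 (limma adjusted p = 0.00422) and Cyp51 by 0.68 ± 0.157 (0.00315).
Hsd17b7 was at 31.0, 28.1, 32.5, 29.7 and 36.8 RPKM in the MYC+Ex3 livers, all below the wild-type livers, and fell by 0.62 ± 0.175 (limma adjusted p = 0.0136). Sqle was at 47.4, 55.5, 49.97, 65.4 and 63.4 RPKM, also below every wild-type liver, and fell by 0.61 ± 0.127 (0.00127). Insig1 was at 111, 116, 151, 138 and 167 RPKM and fell by 0.47 ± 0.128 (0.0115), with replicate 5 inside the wild-type range. Sc5d fell by 0.51.

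Nsdhl, at 26.5, 25.9, 30.2, 24.4 and 43.3 RPKM, fell by 0.57 (limma adjusted p = 0.0392), and Stard4 fell by 0.46 (0.022). These 2 calls were lost in 3 and 1 of 11 alternative settings and in 7 and 3 of 20 fits without 1 library, while the other 6 held in all of them. A sex covariate was among the settings that ended each of these 2 calls. Sex was not balanced here, with 4 of 5 MYC+Ex3 and 2 of 5 wild-type livers male. With that covariate 4.48% of all genes were lower. Tm7sf2, at 36.6, 29.3, 35.4, 21.6 and 50.1 RPKM, had a change of -0.77 that missed the threshold (limma adjusted p = 0.0554), and Abcg5 one of -0.84 (0.0597). Srebf2 was at 16.7, 19.4, 10.1, 12.1 and 15.2 RPKM, a difference of -0.09 (95% interval -0.50 to 0.31). MYC+Ex3 replicate 5 had the highest value of its group in 17 of 27 genes, and without it 12 genes were called, all lower. With the block on title numbers 9 genes were called, all lower, where 5.55% of all genes were lower. Of markers of other cells, Col1a1 was higher (1.32) and Dcn (-0.56) and Lrat (-0.82) were lower, out of 7 for stellate cells and fibroblasts. Of 7 macrophage, 6 endothelial and 6 hepatocyte markers 0 were called. After rescaling 4 of 6 endothelial and 1 of 6 hepatocyte markers were lower, where 9.52% of all genes were. Of the 7 stellate and fibroblast markers 1 was then higher and 3 lower, and of the 7 macrophage markers 0 were called. Hepatocyte markers summed to between 836 and 1383 RPKM and endothelial markers to between 104 and 205. All 9 proliferation genes were higher (median 3.94). The part of these in the result was not tested.

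Compared directly, MYC+Ex3 and MYC livers differed in 0 of 27 genes (0.19% of all genes were called), with 0 at an unadjusted p under 0.05 in limma and 0 called with voom on recovered reads. Among all 13688 genes 461 were under that unadjusted p. The intervals of the differences remained wide for some genes, from -0.25 to 1.54 for Abcg8 and from -0.98 to 0.38 for Mvd, and narrow for others, such as -0.26 to 0.27 for Insig1.

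Ex3 alone called 0 of 27 genes against wild type (0.132% of all genes were called), with 5 at an unadjusted p under 0.05 in limma and 0 called with voom. Among all 13688 genes 744 were under that unadjusted p. Of the 27 estimates 21 were positive, and their median was 0.16 against 0.01 for all genes. The 5 genes were Mvd, which decarboxylates mevalonate diphosphate (0.77 ± 0.327, limma adjusted p = 0.85), Mvk (0.76), Nsdhl (0.45), Hsd17b7 (0.38) and Acat2, which condenses acetyl-CoA (0.28). Sqle was at 87.9, 85.6, 105, 109 and 81.8 RPKM in the Ex3 livers, Insig1 at 199, 181, 211, 196 and 194, and Srebf2 at 18.5, 18.8, 16.9, 16.1 and 10.4, and none of these differed from wild type beyond the spread.

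MYC on the Ex3 background was read from MYC+Ex3 against Ex3 livers. Of 27 genes 14 were lower and 0 higher, where 4.7% of all genes were lower and 16.4% higher, 21.1% in either direction. After rescaling 17 of the 27 were lower and 0 higher, where 7% of all genes were lower and 14.2% higher. Before rescaling, all 27 estimates were negative (median -0.58 against 0.03 for all genes). In the mevalonate and isoprenoid steps 4 of 7 were called (Mvd, Pmvk, Idi1 and Fdps), and in the squalene and sterol steps 8 of 11. Idi1 lost its call in keratin-free libraries alone and without MYC+Ex3 replicate 1 or 2 (limma adjusted p up to 0.0577). Mvd was at 45.7, 38.0, 35.3, 33.6 and 17.6 RPKM in the Ex3 livers and at 12.0, 17.2, 8.87, 12.6 and 15.1 in the MYC+Ex3 livers. The groups did not overlap, with Ex3 replicate 5 close to the highest MYC+Ex3 liver, and Mvd fell by 1.28 ± 0.327 (limma adjusted p = 0.00805). In wild-type livers Mvd ranged from 11.4 to 36.9 RPKM.

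Nsdhl was at 56.4, 57.2, 66.3, 70.7 and 52.6 RPKM in the Ex3 livers, above every MYC+Ex3 liver, and fell by 1.01 ± 0.194 (limma adjusted p = 0.000754). Hsd17b7 was at 55.2, 53.1, 73.6, 80.0 and 63.1 RPKM in the Ex3 livers, again above every MYC+Ex3 liver, and fell by 1.01 ± 0.175 (0.000318). Msmo1 was at 72.9, 69.4, 85.7, 91.5 and 77.6 RPKM and fell by 1.00 ± 0.178 (0.000413). Tm7sf2 was at 74.5, 66.5, 68.9, 67.1 and 57.8 RPKM and fell by 0.98 ± 0.286 (0.0183), a call lost without MYC+Ex3 replicate 4 (0.0563). All 5 Ex3 livers lay above all 5 MYC+Ex3 livers for these genes too.
The interaction, which asks whether MYC and Ex3 together differ from the sum of their separate log2 effects, called 0 of 27 genes (0% of all genes), with 1 at an unadjusted p under 0.05 in limma, Mvd (-1.07 ± 0.463), and 0 called with voom. Among all 13688 genes 132 were under that unadjusted p.

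In MYC tumours enzymes of the sterol ring were lower than in 4-OHT livers, as was Insig2. Against 4-OHT livers 10 of 27 genes were lower and 0 higher, where 13.7% of all genes were lower and 36.2% higher, 49.8% in either direction. The median log2 change over all genes was 0.19, and that of the 27 was -0.20. After each library was rescaled by its median ratio, 14 of the 27 were lower and 0 higher, and 23.5% of all genes were lower and 27% higher. The squalene and sterol steps had 8 of 11 genes lower and the mevalonate and isoprenoid steps 0 of 7. Of markers of other cells, 6 of 7 for macrophages and 5 of 6 for endothelial cells were lower. Macrophage markers summed to between 25.3 and 97.9 RPKM in the MYC tumours and to between 94.99 and 127 in the 4-OHT livers, and none was at 0 in every tumour. Endothelial markers summed to between 16.5 and 33.9 RPKM, against 37.6 to 63.3. Hepatocyte markers summed to between 140 and 252 RPKM, against 192 to 264, and after rescaling 5 of 6 were lower. Their part in the result was not tested.

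Tm7sf2 was at 2.62, 5.20 and 6.45 RPKM in the MYC tumours, against 9.64, 12.5 and 15.5 (lowest, median, highest) in the 4-OHT livers. Cyp51 was at 11.9, 6.64 and 12.7 RPKM, against 12.9, 20.2 and 21.3. Neither gene's groups overlapped. Tm7sf2 fell by 1.23 ± 0.208 (limma adjusted p = 0.000302) and Cyp51 by 0.77 ± 0.192 (0.00446).
Msmo1 was at 8.72, 4.77 and 6.12 RPKM, against 7.33, 12.0 and 14.2 in the 4-OHT livers, and fell by 0.74 ± 0.185 (0.00468), with tumour replicate 1 inside the control range. Hsd17b7 was at 6.35, 3.92 and 6.25 RPKM, against 7.32, 9.47 and 13.3, with no overlap, and fell by 0.71 ± 0.176 (0.00423). Sqle was at 13.6, 7.03 and 11.8 RPKM, against 12.5, 18.9 and 22.0, and fell by 0.71 ± 0.185 (0.00609), with replicate 1 inside the control range. Nsdhl (-0.67), Ebp, the sterol isomerase (-0.59), and Sc5d (-0.54) were also called.

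Insig2, the INSIG form that does not need SREBP2 for its expression, was at 9.84, 7.46 and 6.69 RPKM in the MYC tumours. The 4-OHT livers ranged from 12.3 to 32.8 with a median of 21.6, above all 3 tumours, and Insig2 fell by 1.33 ± 0.293 (limma adjusted p = 0.00201). It fell by 1.73 against the S143 set of these livers alone and by 0.79 against the S152 set alone, sets read from the label numbers. Insig1 was at 39.9, 18.4 and 24.7 RPKM in the tumours, on both sides of the 4-OHT range of 22.4 to 36.7 (median 29.2), and was not called (-0.16, limma adjusted p = 0.543). Scap fell by 0.50 (0.0272), a call lost without tumour replicate 2 or 3 (limma adjusted p up to 0.168), against the S152 livers alone, with log2 depth as a covariate and with a sex covariate (up to 0.23). By their Xist and Ddx3y levels, 3 of 3 MYC tumours, 2 of 3 MYC+Ex3 tumours and 4 of 7 4-OHT livers were male. Srebf2 was at 4.50, 5.44 and 6.70 RPKM, against 4.01, 4.52 and 6.25, and was not called (0.19, -0.00 after rescaling). The call of Sc5d was lost in 7 of 10 alternative settings and 10 of 13 fits without 1 library.

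Among the MYC tumours, replicate 1 had the highest value in 16 of the 27 genes and replicate 2 the lowest in 18. Replicate 1 held 6.67 M reads in genes, against 9.56 M in replicate 2 and 9.82 M in replicate 3. Without replicate 1 the count was 14 and without replicate 2 it was 8. Against the 3 livers of the S152 set alone, 4 of the 27 genes stayed lower, namely Tm7sf2, Hsd17b7, Ebp and Insig2, which held also in the other 9 alternative settings and in all 13 fits without 1 library. Of all genes 7.82% were lower and 28.9% higher against those 3 livers. Insig2 was at 21.6 to 32.8 RPKM in the 4 livers of the S143 set and at 12.3 to 18.7 in the 3 of the S152 set. Dbp, a clock output gene, was at 0.0796 to 4.25 RPKM in the first and at 5.26 to 9.40 in the second, and at 0.452 to 2.67 in the MYC tumours. With log2 Dbp as a covariate, chosen after seeing the data, Insig2 kept its call.

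**Figure D3:**
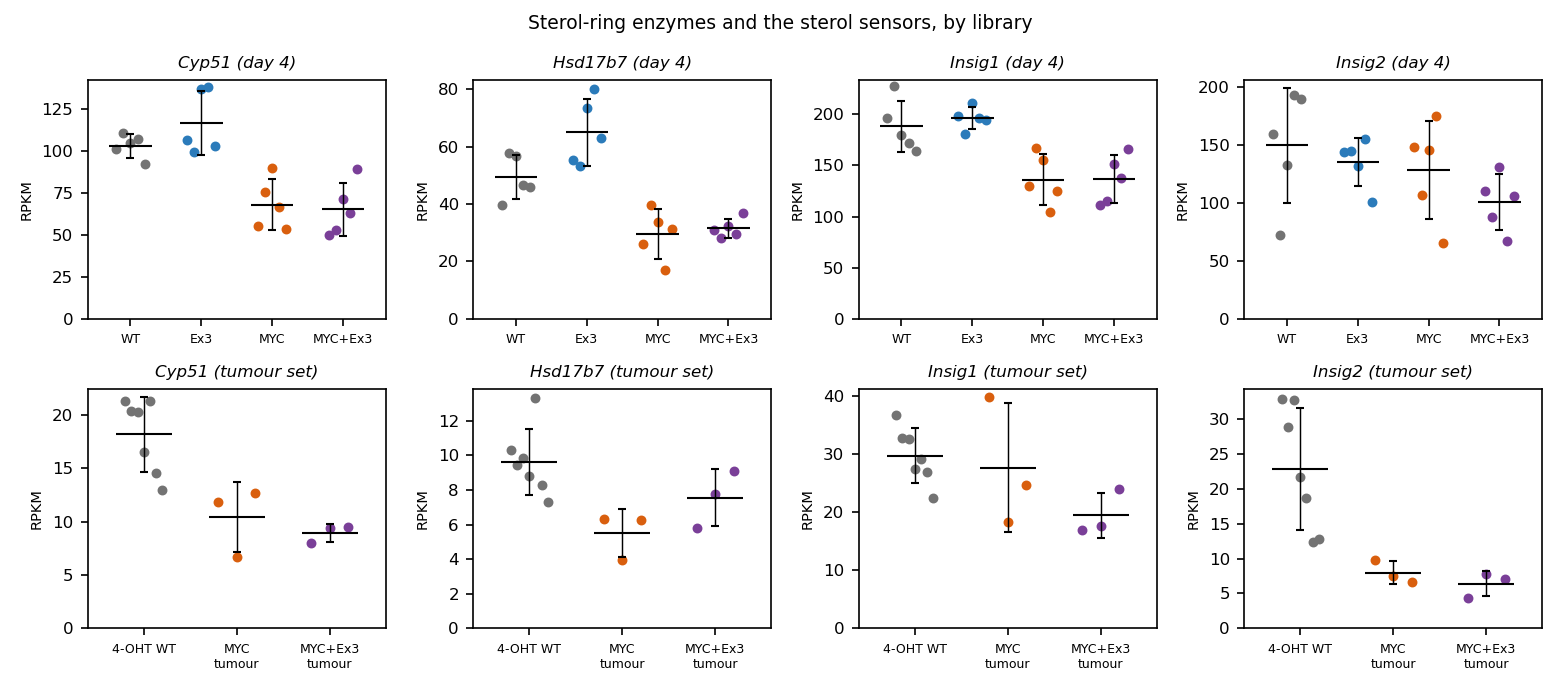
RPKM of Cyp51, Hsd17b7, Insig1 and Insig2 in every library, with short-term livers above and the tumour set below. Points are libraries, long bars are means and error bars are 1 SD, and the 2 sets are on different scales. Both kinds of tumour lie below all 4-OHT livers for Insig2 but not for Insig1.

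In MYC+Ex3 tumours 10 of 27 genes were lower and 2 higher than in the 4-OHT livers, where 18.4% of all genes were lower and 42.3% higher, 60.6% in either direction. The median of the 27 was -0.27 and that of all genes 0.23. After rescaling 16 of the 27 were lower and 1 higher, and 27.3% of all genes were lower and 33.7% higher. Both tumour comparisons used the same 4-OHT livers. The squalene and sterol steps had 7 of 11 genes lower and the mevalonate and isoprenoid steps 0 of 7. Macrophage markers (5 of 7 lower, summing to 42.7 to 53.8 RPKM) and endothelial markers (4 of 6 lower, 22.6 to 25.4 RPKM against 37.6 to 63.3 in the 4-OHT livers) moved with the group. Both erythroid markers tested were higher, and 1 of the 2 after rescaling. Hepatocyte markers summed to 154 to 204 RPKM, against 192 to 264 in the 4-OHT livers, with 4 of 6 lower. Their part in the result was not tested.

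Insig2 was at 4.34, 7.73 and 7.06 RPKM in the MYC+Ex3 tumours, below all 4-OHT livers, and fell by 1.63 ± 0.293 (limma adjusted p = 0.000268), or by 2.04 against the S143 and 1.09 against the S152 livers alone. Tm7sf2 was at 3.65, 3.79 and 5.56 RPKM, also below all controls, and fell by 1.29 ± 0.208 (0.000107). Sc5d was at 14.9, 15.4 and 16.5 RPKM, against 27.9, 36.8 and 39.9 in the 4-OHT livers, and fell by 1.09 ± 0.213 (0.000537). The 3 tumours lay close together and below every 4-OHT liver.
Cyp51 was at 7.95, 9.36 and 9.50 RPKM and fell by 0.93 ± 0.192 (0.000829). Ebp was at 8.88, 10.6 and 10.5 RPKM, against 15.6, 21.0 and 22.4, and fell by 0.88 ± 0.147 (0.000153). Sqle, at 10.2, 11.6 and 12.9 RPKM, fell by 0.58 ± 0.185 (0.014), with 1 tumour above the lowest 4-OHT liver, and was not called against the S152 livers alone or without tumour replicate 1 (0.0682). The calls of Insig2, Tm7sf2, Sc5d, Cyp51 and Ebp held in all 10 alternative settings and all 13 fits without 1 library.

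Msmo1 (-0.70), Nsdhl (-0.52) and Nr1h3 (-0.57) were lower as well, each losing its call against the S152 livers alone (limma adjusted p = 0.0718, 0.142 and 0.0507). Insig1 was at 16.9, 17.5 and 23.9 RPKM and fell by 0.59 ± 0.204 (limma adjusted p = 0.0217), a call lost against the S152 livers alone, with log2 depth as a covariate (a setting chosen after seeing the data, limma adjusted p up to 0.202), and without tumour replicate 1 or 2. Srebf2 was at 5.75, 6.36 and 7.90 RPKM and rose by 0.42 ± 0.142 (0.0196). After rescaling its change was 0.22 (0.192) and no longer called, and its call was lost in 5 of 10 alternative settings and without tumour replicate 3 (0.125).

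Against the S152 livers alone 5 of the 27 genes were lower and 2 higher, Srebf2 (0.50) and Fdft1 (0.46, limma adjusted p = 0.0456), which was not called against all 7 livers. Of all genes 12.8% were lower and 37.5% higher against the S152 livers. Abcg8 was the other gene that rose against all 7. It was at 14.2, 18.1 and 22.4 RPKM in the MYC+Ex3 tumours, against 8.08, 9.95 and 15.1 in the 4-OHT livers, with tumour replicate 1 inside the control range. Its rise of 0.73 ± 0.194 (limma adjusted p = 0.00482) was 0.52 after rescaling (0.0265) and missed the threshold against the S152 livers alone (0.0527). Abcg5, on the other side of their shared 109 bases, was at 10.9, 13.6 and 16.5 RPKM, against 10.4, 12.7 and 17.3, and was not called (0.09, and -0.13 after rescaling).

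MYC+Ex3 and MYC tumours differed in 0 of 27 genes (4.13% of all genes were called, 2.02% higher and 2.1% lower), with 2 at an unadjusted p under 0.05 in limma and 0 called with voom. The 2 were Abcg8 (0.85 ± 0.229, limma adjusted p = 0.0535) and Sc5d (-0.55 ± 0.252, 0.271). Among all 11854 genes 2089 were under that unadjusted p. Abcg8 was at 7.13, 12.6 and 9.47 RPKM in the MYC tumours, below all 3 MYC+Ex3 tumours. Sc5d was at 40.0, 19.2 and 16.3, where replicate 1, the library with the fewest reads of its group, stood apart. Abcg8 was called after rescaling, with log2 depth as a covariate, and without MYC tumour replicate 1 or 2 or 4-OHT replicate 5. For Insig2 the interval of the difference ran from -1.04 to 0.44 and for Tm7sf2 from -0.59 to 0.46.

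The day 4 and tumour comparisons share no libraries. Of the 13 genes lower in MYC livers on day 4, 7 were also lower in MYC tumours (53.8% of the 13 and 70% of the 10): Cyp51, Hsd17b7, Msmo1, Nsdhl, Sc5d, Sqle and Tm7sf2, all enzymes of the squalene and sterol steps. Of all genes tested in both sets, 51.6% of those lower in MYC livers were also lower in MYC tumours, and 22.5% of those lower in the tumours were lower on day 4. For MYC+Ex3, 6 genes were lower in both (75% of 8 and 60% of 10): Cyp51, Insig1, Msmo1, Nsdhl, Sc5d and Sqle. The shares over all genes were 63.2% and 22.7%. Among genes lower on day 4, the share of the 27 that was also lower in MYC tumours was near that of all genes.
Insig2 was called in both tumour comparisons and in none on day 4, and the difference between them was not tested. With log2 Dbp as a covariate it was called lower in MYC+Ex3 against Ex3 livers (-0.62, limma adjusted p = 0.0348) and not in MYC+Ex3 against wild-type livers (-0.53, 0.053). On day 4 it ranged from 72.8 to 194 RPKM in wild-type, from 101 to 155 in Ex3, from 65.9 to 175 in MYC and from 67.1 to 131 in MYC+Ex3 livers. The liver with the lowest Insig2 in each of these groups had the highest Dbp of its group (38.5, 47, 28.4 and 29 RPKM).

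Tm7sf2 has a counterpart with the same C14-reductase activity, Lbr, the lamin B receptor of the nuclear envelope, which is not among the 28 genes. Lbr was at 17.1, 18.1, 19.9, 17.6 and 19.8 RPKM in the wild-type livers, at 30.7, 22.1, 30.9, 41.7 and 23.7 in the MYC livers and at 32.2, 33.5, 22.8, 31.4 and 28.8 in the MYC+Ex3 livers. The wild-type livers were lower in Lbr than all 10 livers with MYC, the reverse of Tm7sf2 in MYC livers. Lbr rose by 0.63 ± 0.145 in MYC (limma adjusted p = 0.00361) and by 0.65 ± 0.145 in MYC+Ex3 livers (0.00248).
In the tumour set Lbr was at 5.45, 12.3 and 15.4 RPKM in the MYC tumours and at 13.1, 15.5 and 13.9 in the MYC+Ex3 tumours, against 4.17, 5.16 and 6.00 in the 4-OHT livers. MYC tumour replicate 1 lay inside the 4-OHT range for Lbr. It rose by 0.85 ± 0.210 (0.00412) and by 1.29 ± 0.210 (0.00012), and by 0.66 and 1.09 after rescaling. These calls of Lbr held in the alternative settings and in the fits without 1 library, except that on day 4 the rise in MYC livers was not called in keratin-free libraries alone (0.50, limma adjusted p = 0.0817) or with the block on title numbers.

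**Figure D4:**
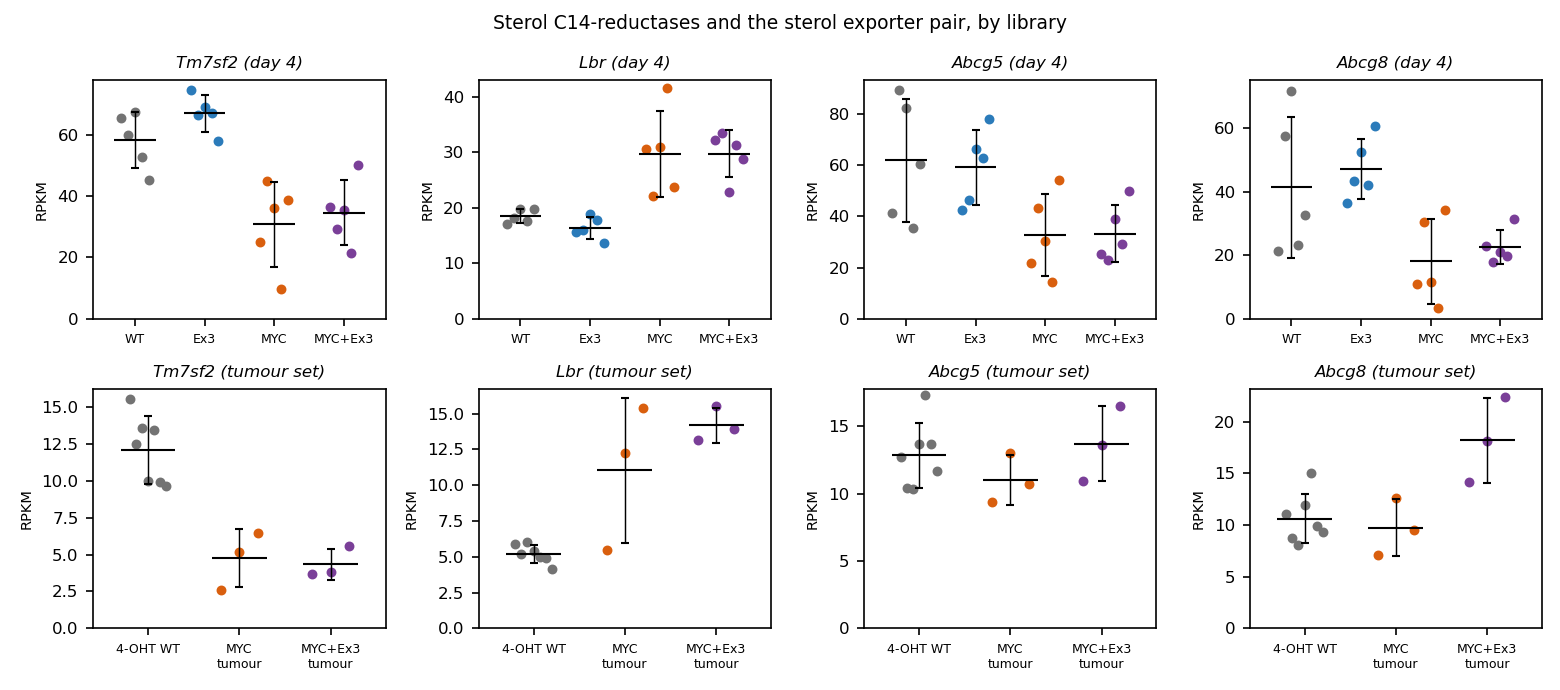
RPKM of the C14-reductases Tm7sf2 and Lbr and of the exporter pair Abcg5 and Abcg8 in every library, with short-term livers above and the tumour set below. Points are libraries, long bars are means and error bars are 1 SD. Group means of Tm7sf2 are lower and those of Lbr higher with MYC in both rows, with 1 MYC tumour inside the 4-OHT range for Lbr, and Abcg8 is high in the MYC+Ex3 tumours while Abcg5 overlaps the controls.

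A branch leaves the pathway at farnesyl and geranylgeranyl diphosphate, with genes that use isoprenoids. Of the 10 listed, 3 were higher and 0 lower in MYC livers, 4 and 0 in MYC+Ex3 livers, 6 and 0 in MYC tumours and 7 and 0 in MYC+Ex3 tumours. Among all genes 16.9%, 17.9%, 36.2% and 42.3% were higher in the same comparisons. After rescaling the counts were 3 and 0, 3 and 0, 5 and 1, and 5 and 1. Pdss1, a subunit of the enzyme that builds the ubiquinone side chain, was at 3.68, 5.02, 4.54, 3.19 and 4.32 RPKM in the wild-type livers and at 15.8, 9.72, 12.1, 23.5 and 7.14 in the MYC livers. No value overlapped, and Pdss1 rose by 1.41 ± 0.224 (limma adjusted p = 0.000119). It rose by 1.48 in MYC+Ex3 livers and by 1.51 and 1.59 in the tumours (1.36 and 1.43 after rescaling). Fntb, the β subunit of farnesyltransferase, rose by 1.24, 1.20, 1.03 and 1.19 in the same order, and Coq2, which joins the side chain to the ubiquinone ring, by 0.59, 0.62, 0.57 and 0.69. The rises of Coq2 on day 4 were not called in keratin-free libraries alone (0.24 and 0.42).

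Of 7 genes that process SREBP or take part in degradation at the endoplasmic reticulum, 1 was higher and 0 lower in both MYC and MYC+Ex3 livers, 3 and 0 in MYC tumours and 3 and 2 in MYC+Ex3 tumours. These shares of higher genes are near those of all genes given above, and after rescaling 2 were higher and 3 lower in MYC tumours. Mbtps2, the site-2 protease that frees SREBP, was higher in each, by 0.67 ± 0.181, 0.74, 0.83 and 1.11. Mbtps2 was at 5.91, 4.65, 3.96, 5.81 and 6.67 RPKM in the wild-type livers and at 9.19, 7.34, 9.40, 15.3 and 6.04 in the MYC livers, with MYC replicate 5 inside the wild-type range. Its call there was lost in keratin-free libraries alone, with only 2 groups fitted and with the block on title numbers (limma adjusted p up to 0.141). Of 10 other genes of sterol handling, 1 was higher (Lbr) and 1 lower (Stard5, a carrier of the Stard4 family) in MYC livers, MYC+Ex3 livers and MYC tumours alike, and 2 were higher and 0 lower in MYC+Ex3 tumours (Lbr and the receptor Scarb1), where 1 was higher and 5 lower after rescaling.

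Of 9 genes of fatty acid synthesis, the branch governed by SREBP1, 1 was lower in MYC livers (Me1), 5 in MYC+Ex3 livers, 4 in MYC tumours and 5 in MYC+Ex3 tumours, and 0 were higher in any. Among all genes 5.36%, 6.18%, 13.7% and 18.4% were lower. After rescaling 3, 5, 8 and 7 of the 9 were lower, where 9.53%, 9.52%, 23.5% and 27.3% of all genes were. All 9 estimates were negative in MYC livers (median -0.37) and in MYC+Ex3 livers (median -0.47). They were also negative in Ex3 livers (median -0.22), where 0 were called and the cholesterol genes had mostly positive estimates. Of 7 fasting genes 1 was lower in MYC livers, Pck1 (-0.74), and 1 in MYC+Ex3 livers, G6pc (-0.58). Clock genes differed widely between livers of a group, Dbp from 0.664 to 38.5 RPKM in wild-type livers, and 0 of 11 were called in MYC or MYC+Ex3 livers. With log2 Dbp as a covariate, chosen after seeing the data, 13 of the 27 genes were lower in MYC livers and 9 in MYC+Ex3 livers. Of all genes 6.09% and 7.36% were lower with this covariate.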

How the data were processed

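Total RNA of 33 mouse livers and liver tumours was sequenced as strand-specific libraries, per the labels' protocols. The submitters' processing notes name TopHat2 2.0.8, SAMtools, featureCounts 1.4.5-p1, DESeq2 and the build mm9. The authors deposited RPKM for 21671 genes, with a log2 fold change and an adjusted p-value for each of their own comparisons. The authors' deposited log2 values and p-values were used only to count calls. Whole reads were recovered from the RPKM for 100% of the 20485 genes above 0. No coordinate of mm9 is printed, and promoter sequences and their coordinates are those of RefSeq on GRCm38.p6, matched by gene symbol.

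Groups were taken from the titles and genotype labels. Limma 3.58.1 (R 4.3.3) was fitted with an empirical Bayes trend to log2(RPKM + 1), which understates changes of low genes, over all genes that reached an RPKM of 1 in at least 3 libraries of the fit. The fit of the 20 short-term livers held 13688 genes and that of the 13 tumour and 4-OHT libraries 11854. Tests were two-sided, with Benjamini-Hochberg adjustment over all genes of a comparison and calls at an adjusted p under 0.05. The fit was tested on simulated data. Alternatives were a pseudocount of 0.1, no filter, rescaling by the median ratio, only the groups compared, a sex covariate, keratin sets, the 4-OHT label sets and leaving out each library. Voom on recovered reads, covariates for log2 depth and log2 Dbp, and a block on the first 3 digits of the title numbers on day 4 were chosen after seeing the data.

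The 28 genes, the gene lists and the tests were chosen with earlier results of these data known. Values are given for Insig1, Srebf2, Hmgcs1 and Sqle, and for up to 5 called genes with the largest change in each comparison. Abcg8, Stard4 and Nr1h3 in other comparisons, Dbp, Lbr, Pdss1, Fntb, Coq2 and Mbtps2 were named after their values were seen. Marker lists covered hepatocytes, macrophages, endothelial cells, stellate cells and fibroblasts, cholangiocytes, lymphocytes, erythroid cells and keratinocytes. Of the gene lists, 3 each leave out 1 gene that is not reported here.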

Additional observations from a re-analysis of the deposited data

Results flagged for a closer look

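In 3 of 135 checks of a gene within a group, 1 library lay far from the others, where chance gives about 5%. Lss was at 7.13 RPKM in 4-OHT replicate 7, against 8.93 to 10.1 in the other 4-OHT livers. Sc5d was at 227 RPKM in wild-type liver replicate 2, against 180 to 193 in the other wild-type livers. Stard4 was at 59.9 RPKM in the same liver, against 42.0 to 44.9.

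For 3 genes every MYC+Ex3 liver on day 4 lay below the mean of its controls and every MYC+Ex3 tumour above that of its own. The differences in log2 units were -0.24 on day 4 and 0.27 in tumours for Ggps1, -0.46 and 0.34 for Stard4, and -0.71 and 0.73 for Abcg8. Of these, limma called only Stard4 on day 4 and Abcg8 in tumours. After rescaling by the median ratio the tumour values were 0.09 for Ggps1, 0.13 for Stard4 and 0.52 for Abcg8. The differences between day 4 and tumours were not tested, since the sets were scaled separately.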

How the results depend on the processing

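Counts of the 27 genes called kept within 1.5 times their value, and 0 of the called changes turned their direction, under the alternatives, with these exceptions. In MYC livers 13 calls became 2 in keratin-free libraries alone, 3 with a block on title numbers and 8 with only the groups compared. In MYC tumours 10 calls became 4, and in MYC+Ex3 tumours 12 (10 lower, 2 higher) became 7 (5 lower, 2 higher), 6 of them among the 12, against the S152 livers alone. Between the tumours 0 calls became 1 with rescaling and 1 with a depth covariate. The cause was not tested, though the first and the S152 settings use fewer libraries. Leaving out 1 library gave 9 to 14 calls in MYC livers, 6 to 12 in MYC+Ex3 livers, 11 to 18 in MYC+Ex3 against Ex3 livers, 8 to 14 in MYC tumours, 9 to 16 in MYC+Ex3 tumours, 0 to 1 between tumours and 0 to 0 elsewhere. The authors' deposited table called 12 and 17 of the genes lower in MYC and MYC+Ex3 livers, and 13 and 17 lower in the tumours. Over all genes with an adjusted p-value there, 1093 of 13636 and 1573 of 13729 were lower in these livers. In the tumours 3135 of 15552 and 4977 of 16637 were lower. It called 1 of the genes higher, Abcg8 in MYC+Ex3 tumours. The share of higher among all called genes fell with rescaling from 75.9% to 59.1% in MYC livers, from 74.4% to 61.2% in MYC+Ex3 livers, from 77.7% to 67.0% in MYC+Ex3 against Ex3 livers, from 72.6% to 53.4% in MYC tumours and from 69.7% to 55.2% in MYC+Ex3 tumours. The planned edgeR test was not run, as the deposited unit is RPKM. No 2 libraries share a number in the labels, and the runs of title numbers were used as a block only on day 4, where they cross the groups. Depth limits Abcg8 in MYC replicate 4 (57 reads) and Hmgcs1, and compression limits Insig1, Sc5d and Fdps.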

Other observations

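Of 7 stellate and fibroblast markers, 3 were higher and 3 lower in MYC tumours after rescaling. In MYC+Ex3 tumours 1 was then higher and 4 lower. Among all genes 27% and 33.7% were then higher, and 23.5% and 27.3% lower. Before rescaling, Col1a1 rose by 1.60 with MYC and by 0.92 with MYC+Ex3, while Reln fell by 1.47 and 1.70. Of 2 erythroid markers tested, 0 were called in MYC tumours, and Alas2 rose by 1.36 and Hbb-b1 by 0.67 in MYC+Ex3 tumours. After rescaling only 1 of the 2 was called higher there. Of the fasting genes, Pdk4, which restrains pyruvate oxidation, rose by 2.41 and Pck1, of gluconeogenesis, fell by 1.72 in MYC+Ex3 tumours. After rescaling 2 of the 7 fasting genes were higher and 2 lower there. Of 3 lymphocyte markers 0 were called in MYC tumours and 3 were lower in MYC+Ex3 tumours. Of 2 cholangiocyte markers 0 and 1 were lower. On day 4, 0 of 5 cholangiocyte, 0 of 4 lymphocyte, 0 of 2 erythroid and 0 of 3 keratinocyte markers were called in MYC or MYC+Ex3 against wild-type livers. After rescaling 1 of the 5 cholangiocyte markers was lower in each.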
